A study of Homo sapiens with 19 samples.

Results

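The LINC RNAs are long noncoding RNAs, mostly intergenic, that carry a LINC number in place of a functional name. The members described here were chosen from a gene count table of HepaRG cells as the genes whose symbol is LINC followed only by a number and whose mean over all 19 libraries was at least 2 CPM (the count divided by the library total, on the usual scale of counts per 1e6). That rule kept 201 genes, of 2201 genes with such a symbol and 78894 genes in the table. It used measured levels from all groups, so the levels themselves are a description. The 3 members just inside the threshold were LINC01772 at 2.04 CPM, LINC01592 at 2.02 CPM and LINC01750 at 2.01 CPM, and the 3 LINC genes just outside it were LINC01242 at 1.99 CPM, LINC02709 at 1.98 CPM and LINC01189 at 1.97 CPM. All 201 members passed the expression filter of the tests.

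HepaRG is a human hepatic cell line that can be differentiated in culture into cells like hepatocytes and cells like bile duct epithelium, and all libraries came from differentiated cells. Batch 1 held cells given an ADAR siRNA (siADAR, 3 libraries), an ADARB1 siRNA (siADARB1, 3 libraries) or a control siRNA (siNC, 3 libraries). Batch 2 held cells given interferon alpha (IFNa, 2 libraries), the kinase inhibitor BX795 together with the ADAR siRNA (2 libraries), BX795 (3 libraries) or the control siRNA (siNC, 3 libraries). Doses were 20 nM for each siRNA, 1000 U/mL for IFNa and 1 µM for BX795, and the 2 compounds stayed in the medium when it was replaced 24 h and 48 h later. The sources do not state if control siRNA was added to wells of IFNa or BX795 alone. No label calls the replicates separate cultures, so p-values measure only the spread between these libraries, which may be technical. One siRNA was used per target, in 1 cell line.

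ADAR encodes an enzyme that converts adenosine to inosine in double-stranded RNA and thereby keeps the cell's own double-stranded RNA from innate immune sensors. ADARB1 encodes a related editing enzyme, interferon alpha induces antiviral genes through its receptor, and BX795 inhibits TBK1, a kinase between those sensors and interferon production. LINC RNAs are transcribed by RNA polymerase II and are often restricted to few cell types, and for most of them no molecular role is established.

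The libraries held 13.1 to 77.1 M counts, with the lowest totals in the batch 2 controls. The median member had between 97 and 455 counts per library. ADAR itself stood at 56.2 to 65.4 CPM in siADAR cells, against 231 to 237 CPM in siNC cells of batch 1 (log2 fold change −2.02 ± 0.08 SE), and at 54.6 to 58.9 CPM in BX795 with siADAR cells, against 273 to 311 CPM in BX795 cells. ADARB1 stood at 9.36 to 10.4 CPM in siADARB1 cells, against 27.8 to 30.5 CPM in siNC cells. The 8 hepatocyte markers examined, ALB among them, all reached 1 CPM in at least 1 library. Their summed level was 49380 to 51250 CPM in siADAR cells, against 62950 to 66840 CPM in siNC cells of batch 1, and 9912 to 17720 CPM in batch 2. Of 6 biliary and progenitor markers 5 reached 1 CPM and EPCAM was at or near 0. Leukocyte markers reached 1 CPM for 3 of 6 genes, with PTPRC and CD3E at or near 0, endothelial markers for 1 of 5 and stellate and fibroblast markers for 5 of 5.

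Most members were present throughout. Group means were at least 2 CPM in all 7 groups for 159 members and fell under 2 CPM in at least 1 group for the other 42, and no member reached 2 CPM in 1 group only. The median member averaged 6.36 CPM, and 68 members averaged 10 CPM or more. LINC00370 (ENSG00000223617.4, chr13:109281973-109297687 in GRCh38.p14) was the highest at 322 CPM, followed by LINC00963 at 132 CPM, LINC00472 at 119 CPM, LINC02015 at 73.0 CPM and LINC00261 at 52.5 CPM. LINC00261, also called DEANR1, is an endoderm RNA transcribed beside FOXA2, a transcription factor of liver development. Per kilobase of a gene's merged GENCODE v29 exons the order was LINC00370 with 241 CPM per kb, LINC02966 with 55.2, LINC02506 with 47.3, LINC00472 with 34.6 and LINC01049 with 31.4 CPM per kb.

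GENCODE v29 held 195 of the 201 members and called 167 of them lincRNA, 18 processed transcript, 7 antisense, 2 bidirectional-promoter RNA and 1, LINC02693, protein coding. Positions in the RefSeq annotation of GRCh38.p14 were found for 197 members. Of these, 18 overlapped a protein-coding gene and 48 more lay within 10 kb of one. The libraries were directional, but no source used here states if counting used the strand, so reads of overlapping members and their partners may not be separated. The median GC content of the members' transcripts was 45.8% (31.3% to 64.7%), against 47.9% over all tested genes.

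The level of many members differed between the batches, even between the control cells. Mean levels were higher in the batch 2 controls for 119 members and lower for 82. LINC02499 had 1.02 ± 0.18 CPM in batch 2 controls, against 19.1 ± 1.1 CPM in batch 1 controls (SD, n = 3 each), and LINC01028 had 1.64 ± 0.61 CPM in batch 2 controls, against 0.263 ± 0.115 CPM in batch 1 controls. LINC00261 had 22.7 ± 3.1 CPM in batch 2 controls and 99.8 ± 1.8 CPM in batch 1 controls. Batch and any other difference between the experiments cannot be told apart, so all comparisons were made within a batch.

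Promoters of 132 members were in the RefSeq table of promoter sequences (GRCh38.p14, 250 bases before to 50 after a transcription start). The sequences of 4 members are given because these members had the largest rise after siADAR (LINC02518) or IFNa (LINC01094) and the largest falls with a promoter in the table (LINC02268 after siADAR, LINC00543 after IFNa). LINC01094 lies on chromosome 4 (chr4:78645744-78646043, plus strand), LINC02518 on chromosome 6 (chr6:113433398-113433697, minus strand), LINC00543 on chromosome 13 (chr13:27953276-27953575, plus strand) and LINC02268 on chromosome 4 (chr4:174220349-174220648, minus strand). Capitals mark the 1 motif match found in them.
LINC01094: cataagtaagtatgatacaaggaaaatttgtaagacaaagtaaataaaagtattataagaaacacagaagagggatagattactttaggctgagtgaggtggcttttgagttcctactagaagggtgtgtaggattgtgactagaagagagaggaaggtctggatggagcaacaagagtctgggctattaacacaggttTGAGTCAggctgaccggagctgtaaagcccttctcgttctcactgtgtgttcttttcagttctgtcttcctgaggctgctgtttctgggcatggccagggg
LINC02518: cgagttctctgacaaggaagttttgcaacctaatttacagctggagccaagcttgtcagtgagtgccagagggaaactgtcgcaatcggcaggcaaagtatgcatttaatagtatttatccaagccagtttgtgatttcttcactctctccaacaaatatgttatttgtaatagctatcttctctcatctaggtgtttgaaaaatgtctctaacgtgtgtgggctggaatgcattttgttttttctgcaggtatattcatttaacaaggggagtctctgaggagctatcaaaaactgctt
LINC00543: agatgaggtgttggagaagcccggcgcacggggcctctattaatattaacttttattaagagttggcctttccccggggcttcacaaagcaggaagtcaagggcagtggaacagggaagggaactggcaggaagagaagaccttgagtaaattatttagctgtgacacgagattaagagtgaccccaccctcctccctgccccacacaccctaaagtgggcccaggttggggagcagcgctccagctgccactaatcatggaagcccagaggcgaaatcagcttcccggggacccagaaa
LINC02268: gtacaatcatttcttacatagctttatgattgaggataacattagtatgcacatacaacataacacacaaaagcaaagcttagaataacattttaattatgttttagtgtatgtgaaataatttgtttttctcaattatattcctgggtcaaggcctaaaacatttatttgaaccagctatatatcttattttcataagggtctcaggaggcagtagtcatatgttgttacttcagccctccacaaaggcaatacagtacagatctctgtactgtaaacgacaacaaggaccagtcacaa

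Both strands were searched for 5 motifs: the core of the interferon-stimulated response element (GAAANNGAA), an HNF4 site (CAAAGTCCA), an HNF1 site (GTTAATNAT), a cAMP response element (TGACGTCA) and an AP-1 site (TGANTCA). In these 4 sequences only the AP-1 letters occurred, at positions 200 to 206 of the LINC01094 promoter, counted from its 5′ end. The interferon core letters stood in 15 of 147 member promoters (10.2%; some members have several starts) and in 8.11% of all 35116 promoters in the table. They stood in 3 of 22 promoters of members that rose after IFNa, 1 of 21 that fell after IFNa, 0 of 11 that rose after siADAR and 2 of 26 that fell after siADAR. The AP-1 letters stood in 16 member promoters (10.9%), against 7.71% of all promoters, and the cAMP element in 6 (4.08%), against 1.85%. Neither the HNF4 nor the HNF1 letters occurred in a member promoter, and they stood in 0.384% and 0.792% of all promoters. A match or its absence describes these letters in this window only.

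After the ADAR siRNA, many more members fell than rose. Of the 201 members, 12 rose and 44 fell at an adjusted p under 0.05 (edgeR quasi-likelihood test, Benjamini-Hochberg over 23121 genes), a called share of 27.9%. Over all tested genes 21.8% were called, 11.0% higher and 10.8% lower. Among the 13997 other tested genes with a mean of at least 2 CPM, 15.5% were called higher and 15.3% lower, against 5.97% higher and 21.9% lower among the members. The median log2 fold change was −0.17 over the members and −0.02 over all tested genes. LINC genes under 2 CPM gave 20 higher and 16 lower of 421 tested.

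LINC01235 (chr9:13406380-13431329) fell most. It had 1.14, 1.15 and 1.13 CPM in siADAR cells, against 2.93, 3.93 and 3.61 CPM in siNC cells, a log2 fold change of −1.61 ± 0.21 (SE; adjusted p = 1.9e-05, edgeR). The siADAR libraries lay close together and far under every control library. LINC02268 had 1.29, 1.70 and 1.43 CPM in siADAR cells, against 2.54, 3.56 and 3.57 CPM in siNC cells (log2 fold change −1.13 ± 0.16). LINC00574 (chr6:169790073-169802873) had 4.88, 5.17 and 5.26 CPM in siADAR cells, against 10.5, 11.8 and 9.88 CPM in siNC cells (−1.07 ± 0.13). For both RNAs the highest siADAR library stayed well under the lowest control library.

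The abundant LINC00472 (chr6:71407864-71420745), described elsewhere as a tumour suppressor RNA in breast cancer, had 42.6, 42.6 and 38.7 CPM in siADAR cells, against 74.7, 73.4 and 69.3 CPM in siNC cells (log2 fold change −0.81 ± 0.10). LINC01128 had 11.3, 10.1 and 10.2 CPM in siADAR cells, against 20.1, 20.0 and 17.5 CPM in siNC cells (−0.86 ± 0.09). LINC02997 had 37.4, 35.6 and 37.6 CPM in siADAR cells, against 66.8, 67.2 and 63.4 CPM in siNC cells (−0.84 ± 0.09). All 9 siADAR values of these 3 RNAs lay far under the matching control values, with no overlap between groups.

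The endoderm RNA LINC00261 fell by less. It had 81.4, 80.8 and 80.1 CPM in siADAR cells, against 97.8, 100.2 and 101 CPM in siNC cells. LINC02499, LINC01419, LINC02246, LINC01894, LINC02197 and LINC00844 fell by between 1.30 and 0.79 on the log2 scale. Over the 44 members that fell, log2 fold changes ran between −1.61 and −0.27, and 6 of them fell at least 2-fold.

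LINC02518 (ENSG00000232316.3, chr6:113428540-113433447) rose most after siADAR. It had 5.76, 5.58 and 6.52 CPM in siADAR cells, against 3.03, 2.49 and 2.48 CPM in siNC cells (log2 fold change 1.16 ± 0.22, adjusted p = 0.00085, edgeR). LINC00370, the most abundant member, had 263, 250.4 and 265 CPM in siADAR cells, against 153, 155 and 165 CPM in siNC cells (0.72 ± 0.14). LINC02381 had 10.2, 10.8 and 12.3 CPM in siADAR cells, against 5.98, 7.09 and 7.08 CPM in siNC cells (0.72 ± 0.12). All siADAR libraries of these 3 RNAs stood above all control libraries. The other 9 rises were LINC00842, LINC00313, LINC01572, LINC02884, LINC00511, LINC01186, LINC01843, LINC00294 and LINC01123, with log2 fold changes between 0.34 and 0.75. LINC00842 lies among near-identical copies beside ANXA8L1 on chromosome 10, so its counts are uncertain.

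**Figure D1:**
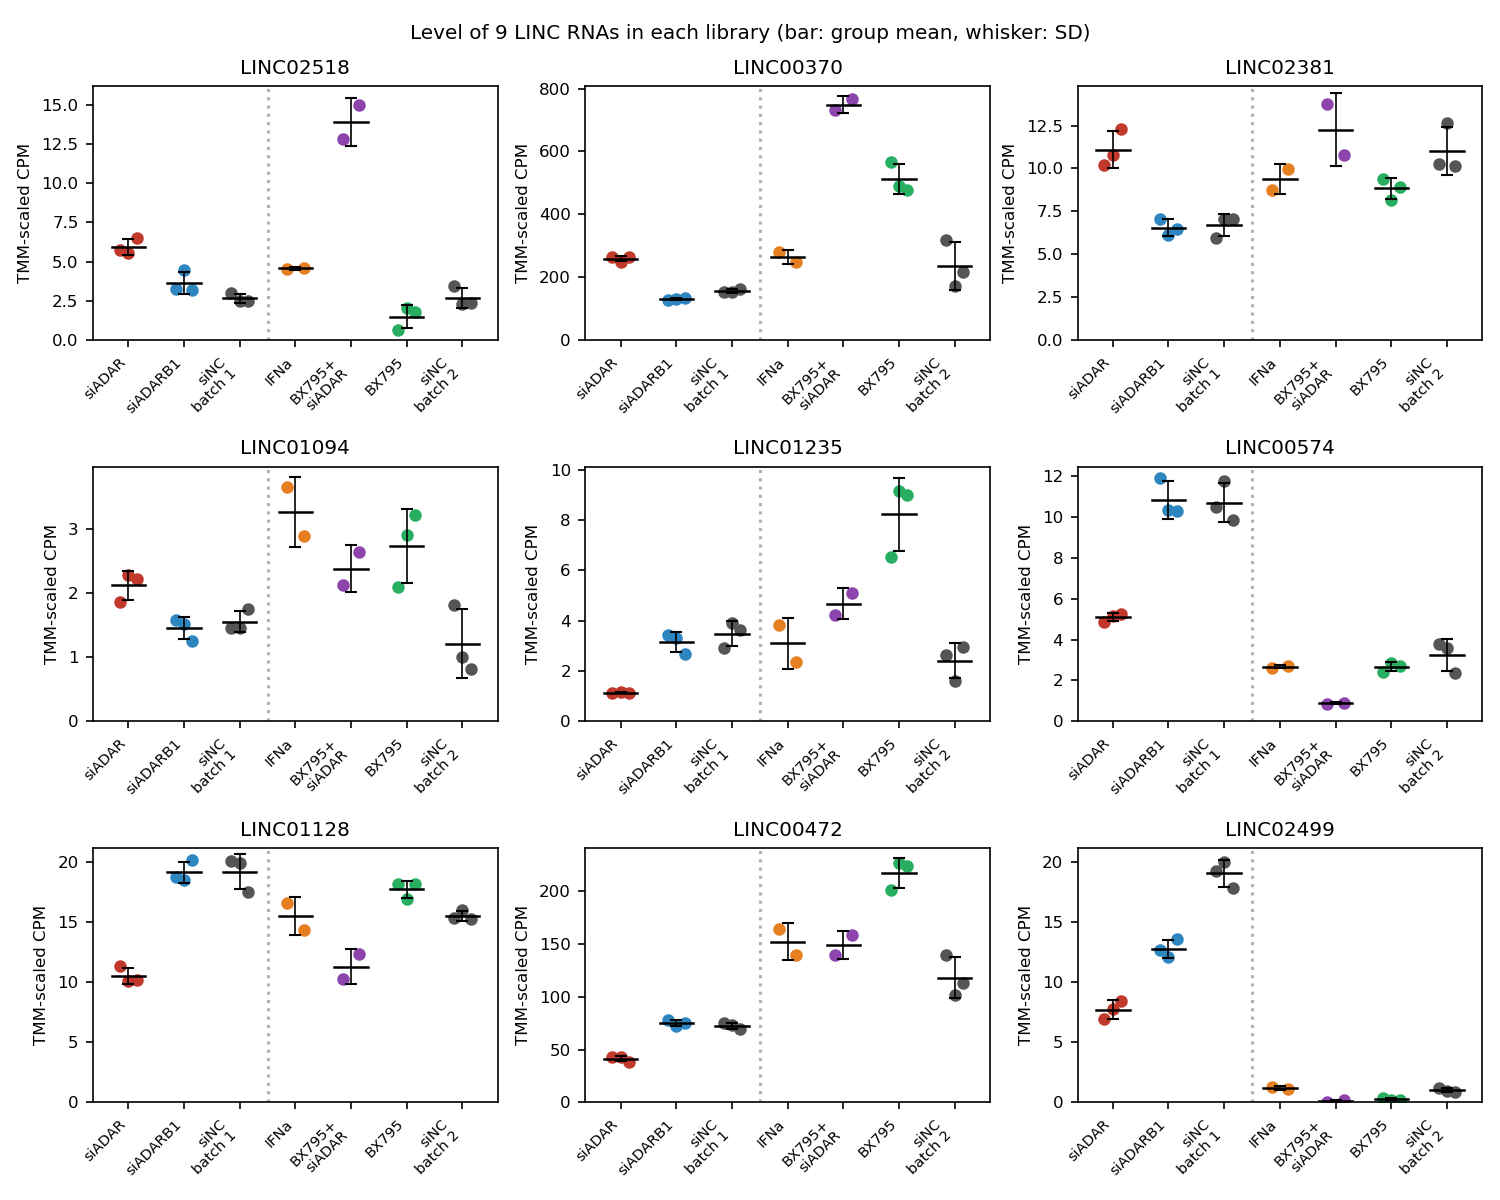
TMM-scaled CPM (y axis) of 9 LINC RNAs in each library, grouped by treatment (x axis), with the dotted line between batch 1 and batch 2. Points are libraries, bars are group means and whiskers the SD. LINC02518 stood at 12.8 and 15.0 CPM in BX795 with siADAR cells and LINC02499 stood under 1 CPM in every library given BX795.

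The ADARB1 siRNA moved few members. At the same threshold 3 rose and 3 fell (2.99%), against 4.61% of all tested genes (2.1% higher and 2.51% lower) and 7.11% of the other genes with at least 2 CPM. LINC01348 had 13.3, 11.9 and 11.5 CPM in siADARB1 cells, against 21.6, 21.7 and 17.9 CPM in siNC cells (log2 fold change −0.74 ± 0.13), and LINC02499 and LINC00960 also fell (−0.57 ± 0.13 and −0.46 ± 0.09). LINC02884 had 6.48, 6.43 and 6.64 CPM in siADARB1 cells, against 3.96, 4.47 and 3.93 CPM in siNC cells (0.66 ± 0.12). LINC01127 rose to 12.3, 12.4 and 12.2 CPM in siADARB1 cells, against 8.46, 8.52 and 7.14 CPM in siNC cells (0.61 ± 0.10), and LINC01123 rose by 0.54 ± 0.10. A fit of the compared groups alone called 22 members in place of 6.

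Set directly against the ADARB1 siRNA, the ADAR siRNA gave 11 members higher and 38 lower (24.4%), against 19.5% of all tested genes (9.9% higher and 9.64% lower) and 27.9% of the other genes with at least 2 CPM (13.9% higher and 14.1% lower). The direct test separated the 2 siRNAs most clearly at LINC01127. It had 5.46, 5.33 and 5.76 CPM in siADAR cells, against 12.3, 12.4 and 12.2 CPM in siADARB1 cells (log2 fold change −1.15 ± 0.10, adjusted p = 1.3e-07, edgeR). LINC01127 had thus fallen after the ADAR siRNA and risen after the ADARB1 siRNA. LINC02499 differed between the siRNAs by −0.73 ± 0.14, LINC00472 by −0.86 ± 0.10 and LINC00370 by 0.99 ± 0.14. The comparisons within batch 1 share libraries, so they are not independent of each other.

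The siADAR falls came together with other changes in the cells. The summed biliary and progenitor markers stood at 785 to 815 CPM in siADAR cells, against 317 to 356 CPM in siNC cells, with 5 of 6 markers at a higher mean. Most of that rise was KRT19 (mean 690 CPM, against 283 CPM). The summed stellate and fibroblast markers stood at 103 to 107 CPM in siADAR cells, against 85.3 to 88.2 CPM in siNC cells. The lower hepatocyte sum was carried mostly by ALB, which averaged 26330 CPM in siADAR cells, against 38020 CPM in siNC cells. In all, 5 of the 8 hepatocyte markers had a lower mean in siADAR cells, while SERPINA1, FGB and APOA1 had a higher one. The part of these markers in the members' changes was not tested. In bulk RNA, fewer cells of a type and less RNA per cell cannot be told apart.

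BX795 with the ADAR siRNA was set against BX795 alone in batch 2, without sharing a library with batch 1. The batch 1 contrast used control siRNA. The sources do not state this for the BX795 wells, so the batch 2 contrast may also contain siRNA delivery itself. There, 6 members were higher and 13 lower (9.45%), against 9.52% of all tested genes (5.06% higher and 4.46% lower) and 14.6% of the other genes with at least 2 CPM, with a median log2 fold change of −0.06 over the members. All 13 that fell had also fallen in batch 1, and 4 of the 6 that rose had also risen. Of the 44 batch 1 falls, 42 had a negative log2 fold change in batch 2, and of the 12 rises 11 had a positive one. Whatever their batch 1 call, 127 of the 201 members were negative and 74 positive in batch 2. Over all tested genes 10852 were negative and 12200 positive there. How often all tested genes kept their batch 1 direction is not given here. No member was called in opposite directions. Across the 201 members the log2 fold changes of both contrasts had a Pearson correlation of 0.62 and a Spearman correlation of 0.52. The points share libraries within each batch and are not independent.

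**Figure D2:**
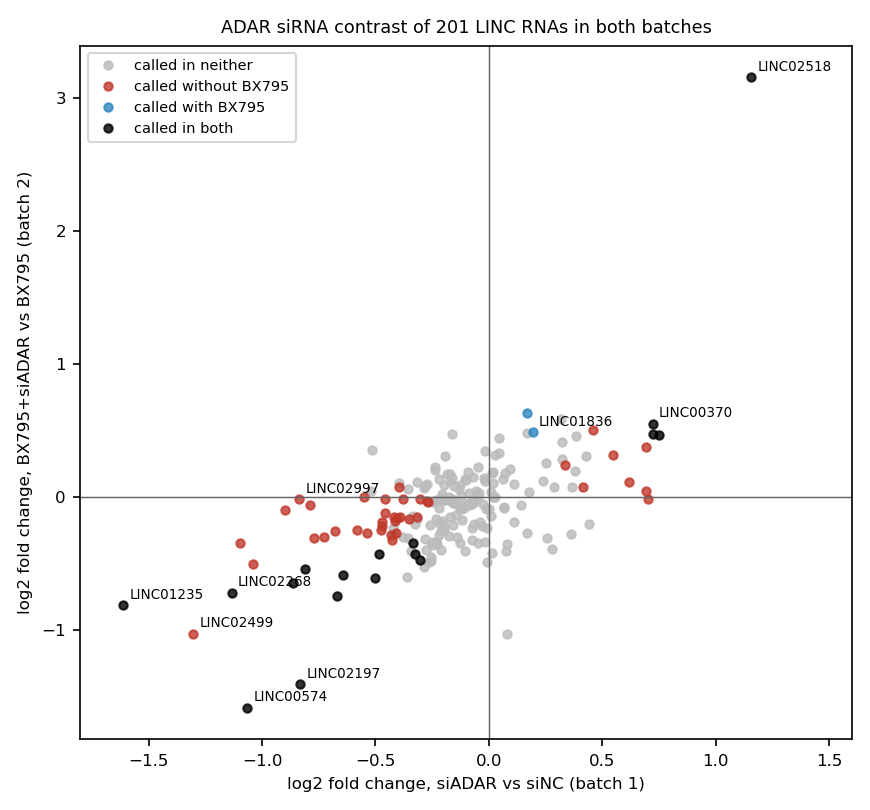
Log2 fold change of each of the 201 members for siADAR against siNC in batch 1 (x axis) and for BX795 with siADAR against BX795 in batch 2 (y axis). Points are genes, coloured by whether they passed the test in 1, both or neither contrast; the 13 members lower in both lie at lower left and LINC02518 stands alone at upper right.

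LINC02518 had 12.8 and 15.0 CPM in BX795 with siADAR cells, against 0.685, 2.06 and 1.81 CPM in BX795 cells (log2 fold change 3.16 ± 0.26, adjusted p = 4.0e-07, edgeR). Both libraries with the siRNA stood several times above every BX795 library. LINC00574 had 0.862 and 0.916 CPM in BX795 with siADAR cells, against 2.44, 2.87 and 2.72 CPM in BX795 cells (−1.59 ± 0.19). LINC02197 had 0.898 and 0.694 CPM in BX795 with siADAR cells, against 1.93, 2.26 and 2.08 CPM in BX795 cells (−1.41 ± 0.25). Both RNAs fell more than 2-fold, and neither group overlapped the other.

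LINC01128 had 10.3 and 12.3 CPM in BX795 with siADAR cells, against 18.2, 16.9 and 18.1 CPM in BX795 cells (log2 fold change −0.65 ± 0.10). LINC00472 had 139.8 and 158 CPM in BX795 with siADAR cells, against 201, 227 and 224 CPM in BX795 cells (−0.54 ± 0.11), and LINC00370 had 730.4 and 768 CPM, against 566, 492 and 478 CPM (0.55 ± 0.15). The other falls were LINC01235, LINC01029, LINC02268, LINC02476, LINC00857, LINC00261, LINC01320, LINC02228 and LINC00540, between −0.82 and −0.35. The other rises were LINC00842, LINC02381, LINC01836 and LINC00513, between 0.46 and 0.63. With 2 libraries in the treated group these calls were less firm. Without BX795 with siADAR replicate 1 the test called 6 members, and a fit of the batch alone called 5. The calls of LINC00370, LINC01235, LINC01029, LINC02268, LINC02476, LINC00857 and the last 4 rises were lost without that library, and those of LINC00574, LINC02197, LINC01128 and LINC02518 held under each alternative. The summed biliary and progenitor markers stood at 197 to 234 CPM in BX795 with siADAR cells, against 121 to 136 CPM in BX795 cells. Most of that rise was KRT19 (mean 149 CPM, against 72.9 CPM), and 5 of 6 markers had a higher mean. The hepatocyte markers stood at 9912 to 12560 CPM, against 16070 to 17720 CPM. The part of these markers was not tested.

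The difference between the responses to the ADAR siRNA with and without BX795 was tested as an interaction. It was called for 3 members, all with a positive difference (1.49%), against 3.42% of all tested genes (1.42% higher and 2.0% lower) and 5.31% of the other genes with at least 2 CPM. LINC02518 rose more with BX795 (difference 2.00 ± 0.34 on the log2 scale, adjusted p = 0.0019, edgeR). LINC02997 fell by 0.84 without BX795 and had a log2 fold change of −0.02 with it (difference 0.82 ± 0.14). LINC00844 fell by 0.79 without BX795 and had −0.06 with it (difference 0.72 ± 0.16), a call that was lost without either BX795 with siADAR library or without BX795 replicate 3 (adjusted p between 0.051 and 0.11, edgeR). Without BX795 replicate 1, 5 members were called. The interaction also contains the batch and any lack of siRNA in the BX795 wells, and these cannot be told apart from BX795.

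IFNa moved members both ways. After IFNa 32 rose and 30 fell (30.8%), against 34.3% of all tested genes (18.4% higher and 15.9% lower) and 50.9% of the other genes with at least 2 CPM. The median log2 fold change was −0.01 over the members and −0.02 over all genes. The controls had received control siRNA, which the sources do not state for the IFNa wells. LINC01094 (ENSG00000251442.9, chr4:78645994-78684501) rose most, with 3.64 and 2.88 CPM in IFNa cells, against 1.82, 0.995 and 0.815 CPM in siNC cells (log2 fold change 1.36 ± 0.26, adjusted p = 0.00089, edgeR). It was the single member that rose at least 2-fold. LINC01049 had 23.6 and 21.1 CPM in IFNa cells, against 17.2, 10.7 and 11.1 CPM in siNC cells (0.75 ± 0.14). In both RNAs replicate 1 of the controls stood above the other two, and no library overlapped.

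Among the falls, LINC00543 (chr13:27953526-27955363) had 1.28 and 1.79 CPM in IFNa cells, against 3.56, 2.98 and 4.89 CPM in siNC cells (log2 fold change −1.31 ± 0.25). LINC00511 had 11.4 and 12.1 CPM in IFNa cells, against 19.4, 18.7 and 18.2 CPM in siNC cells (−0.68 ± 0.10). LINC01772, LINC03072 and LINC00294 also fell (−1.13 ± 0.24, −1.10 ± 0.19 and −0.80 ± 0.08). Leaving out IFNa replicate 1 left 21 calls in place of 62, leaving out siNC replicate 1 raised them to 88, and a fit of the compared groups alone gave 16. The calls of LINC01094, LINC00543, LINC01772, LINC03072 and LINC00294 held under each alternative, while that of LINC01049 missed the threshold in the fit of the compared groups alone (adjusted p = 0.0503, edgeR). The summed biliary and progenitor markers stood at 171 to 194 CPM in IFNa cells, against 218 to 282 CPM in siNC cells. Most of that fall was KRT19 (mean 130 CPM, against 212 CPM). Of the 6 markers 3 had a lower mean and 2, SOX9 and SPP1, a higher one. The stellate and fibroblast markers stood at 224 to 230 CPM, against 185 to 209 CPM. Of these 5 markers 4 had a higher mean and COL1A1 a lower one (11.6 CPM, against 22.6 CPM). Leukocyte sums were 43.1 to 44.5 CPM in IFNa cells, against 37.7 to 46.3 CPM in siNC cells, and hepatocyte sums 12700 to 13750 CPM, against 12530 to 16170 CPM. Their part was not tested.

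BX795 moved the most members of any comparison. Against siNC, 69 rose and 43 fell (55.7%), against 47.1% of all tested genes (23.4% higher and 23.7% lower) and 66.0% of the other genes with at least 2 CPM. The median log2 fold change was 0.17 over the members and −0.01 over all genes. The controls had received control siRNA, which the sources do not state for the BX795 wells. LINC01894 (chr18:24932774-24987979) had 12.6, 14.2 and 13.98 CPM in BX795 cells, against 4.15, 3.11 and 4.45 CPM in siNC cells (log2 fold change 1.80 ± 0.18). LINC01235 had 6.55, 9.14 and 8.99 CPM in BX795 cells, against 2.65, 1.62 and 2.96 CPM in siNC cells (1.77 ± 0.22). LINC02246 had 10.9, 13.6 and 11.4 CPM in BX795 cells, against 4.62, 2.80 and 4.60 CPM in siNC cells (1.57 ± 0.16). Each of these RNAs stood more than 2-fold over its control mean without overlap, and 12 members in all rose at least 2-fold.

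LINC00370 had 566, 492 and 478 CPM in BX795 cells, against 319, 172 and 217 CPM in siNC cells (log2 fold change 1.11 ± 0.14). LINC02499 (chr4:73508803-73528533) fell most, with 0.385, 0.202 and 0.214 CPM in BX795 cells, against 1.23, 0.933 and 0.889 CPM in siNC cells (−2.01 ± 0.30). That fall rests on 9, 6 and 7 counts in BX795 libraries, against 31, 15 and 12 counts in siNC libraries. LINC00511 had 6.04, 6.37 and 7.16 CPM in BX795 cells, against 19.4, 18.7 and 18.2 CPM in siNC cells (−1.52 ± 0.10, adjusted p = 3.5e-09, edgeR). LINC00511 libraries were tight in both groups. LINC02518, which had risen after the ADAR siRNA, fell after BX795 (−0.83 ± 0.27). Of the 44 members that fell after siADAR in batch 1, 17 rose and 6 fell after BX795 in batch 2, and of the 12 that rose, 2 rose and 6 fell. With a correction for the GC content of transcripts in each library these counts were 11 and 7, and 2 and 5. Without that correction, 34.3% of all 201 members rose and 21.4% fell after BX795, whatever their siADAR call. How often all tested genes with the same siADAR call rose or fell after BX795 is not given here. A relation between the siADAR and BX795 responses was not tested. The summed biliary and progenitor markers stood at 121 to 136 CPM in BX795 cells, against 218 to 282 CPM in siNC cells. Most of that fall was KRT19 (mean 72.9 CPM, against 212 CPM). Of the 6 markers 3 had a lower mean and 2, KRT7 and SOX9, a higher one. The leukocyte markers stood at 26.6 to 28.4 CPM, against 37.7 to 46.3 CPM. The stellate and fibroblast markers stood at 162 to 170 CPM, against 185 to 209 CPM, with 3 of 5 lower and 2, LRAT and ACTA2, higher. Hepatocyte sums were 16070 to 17720 CPM in BX795 cells, against 12530 to 16170 CPM in siNC cells, with 6 of 8 markers at a lower mean. Their part was not tested.

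**Figure D3:**
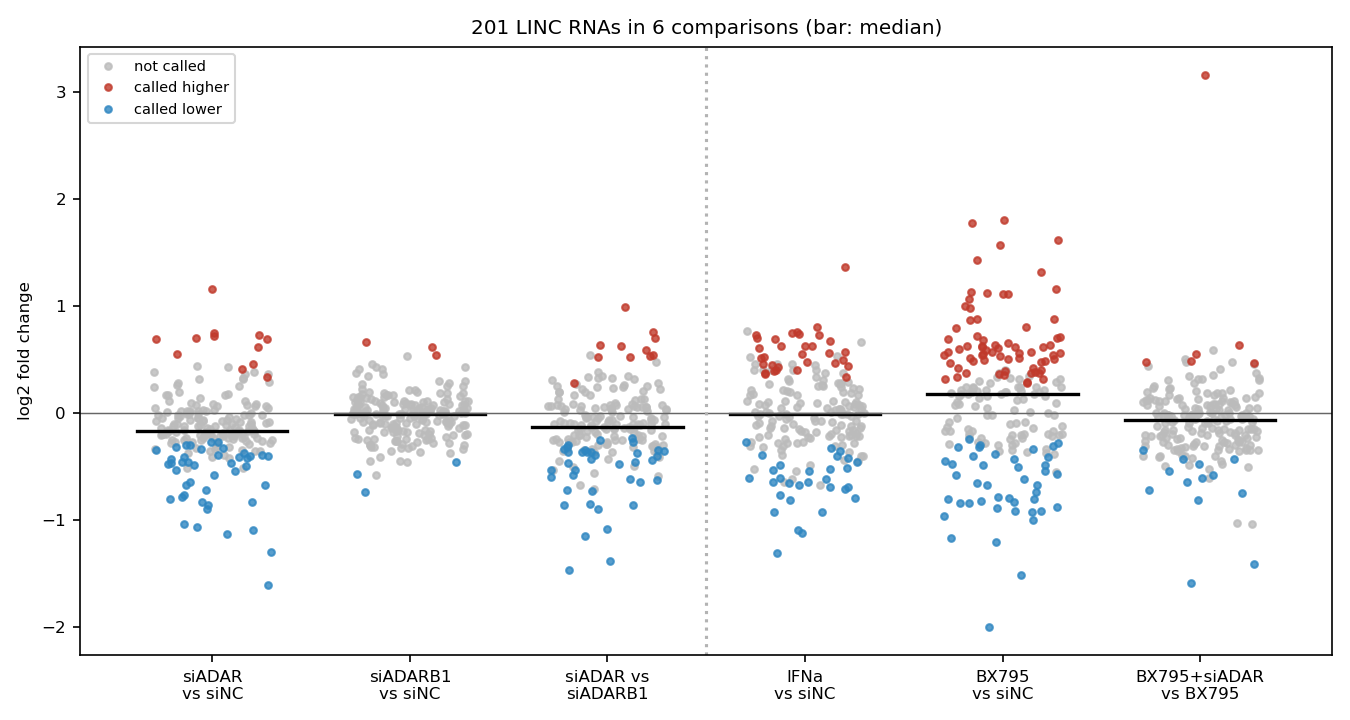
Log2 fold change (y axis) of each of the 201 members in 6 comparisons (x axis), with batch 1 left and batch 2 right of the dotted line. Points are genes, red where called higher and blue where called lower, and bars are medians; after siADAR 44 members were called lower and 12 higher, after BX795 43 lower and 69 higher.

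The members' direction in the IFNa and BX795 comparisons moved with base composition. The median GC content was 41.6% for members that rose after BX795, 55.7% for those that fell and 47.4% for those not called; after IFNa it was 42.3%, 53.3% and 45.9%. Across 195 members with a transcript sequence, GC content and the log2 fold change had a Pearson correlation of −0.56 for BX795, −0.49 for IFNa and 0.07 for siADAR. The libraries differed in the same respect. Genes above 60% GC, relative to genes under 40% GC, departed from the batch mean by −0.64 to −0.22 on the log2 scale in BX795 libraries, by −0.36 and 0.09 in IFNa libraries and by 0.26, 1.02 and 0.86 in the batch 2 controls. In batch 1 these departures lay between −0.08 and 0.11.

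After a correction for GC content in each library, 37 members were higher and 36 lower after BX795, with 33 of the 69 rises and 21 of the 43 falls called as before. After IFNa 21 were higher and 33 lower, with 15 of the 32 rises and 21 of the 30 falls called as before. The correlations with GC were then −0.03 for BX795 and 0.09 for IFNa. LINC01894 rose by 1.53 with the correction, LINC01235 by 1.41, LINC02246 by 1.21 and LINC00370 by 0.76, and LINC02499 had −2.35 and LINC00511 −1.60. For siADAR, all 12 rises and 44 falls of the uncorrected test remained. The GC-rich LINC01786 and LINC02043 had −0.60 and −0.52 with the correction, against −1.21 and −1.17 without it.

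**Figure D4:**
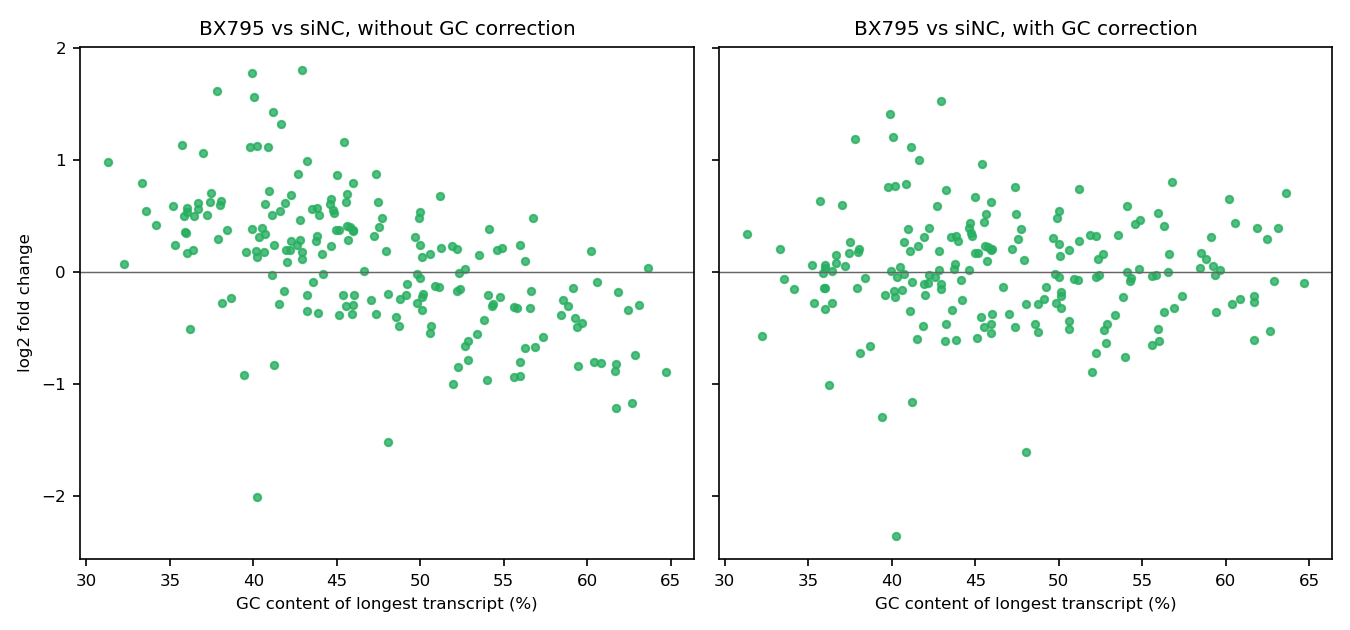
Log2 fold change of BX795 against siNC (y axis) and GC content of the longest transcript in percent (x axis) for 195 members, without (left) and with (right) correction for GC content in each library. Points are genes; the correlation was −0.56 without and −0.03 with the correction.

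Some members moved as their nearest protein-coding gene did. LINC02499 lies 4802 bases from AFM on the same strand; AFM encodes afamin, a plasma protein of the albumin family made in the liver. After siADAR LINC02499 fell by 1.30 and AFM by 1.10 on the log2 scale, after siADARB1 both fell by 0.57, and after BX795 LINC02499 fell by 2.01 and AFM by 1.44. Neither LINC02499 nor AFM was called after IFNa. The LINC02499 value after BX795 rests on at most 31 counts per library. LINC02499 had 6.92, 7.75 and 8.47 CPM in siADAR cells, against 19.3, 20.0 and 17.8 CPM in siNC cells. Of the siADARB1 calls, that of LINC02499 was lost without siADARB1 replicate 1 or 2 or without siNC replicate 1 or 2 of batch 1 (adjusted p between 0.075 and 0.090, edgeR).

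LINC01894 lies 73945 bases from ZNF521, which encodes a zinc finger protein. LINC01894 fell by 0.90 and ZNF521 by 1.23 after siADAR, and they rose by 1.80 and 1.78 after BX795. LINC01127 lies 6415 bases from IL1R2, the decoy receptor of interleukin-1; LINC01127 and IL1R2 fell by 0.54 and 0.37 after siADAR and rose by 0.61 and 0.41 after siADARB1. LINC02997 and PIK3R1, a regulatory subunit gene of PI3-kinase 414698 bases away, fell by 0.84 and 0.89 after siADAR and rose by 0.62 and 0.73 after IFNa. LINC00261 and FOXA2, 2356 bases apart, did not pair in this way: FOXA2 had −0.13 after siADAR (adjusted p = 0.33, edgeR) while LINC00261 fell.

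**Figure D5:**
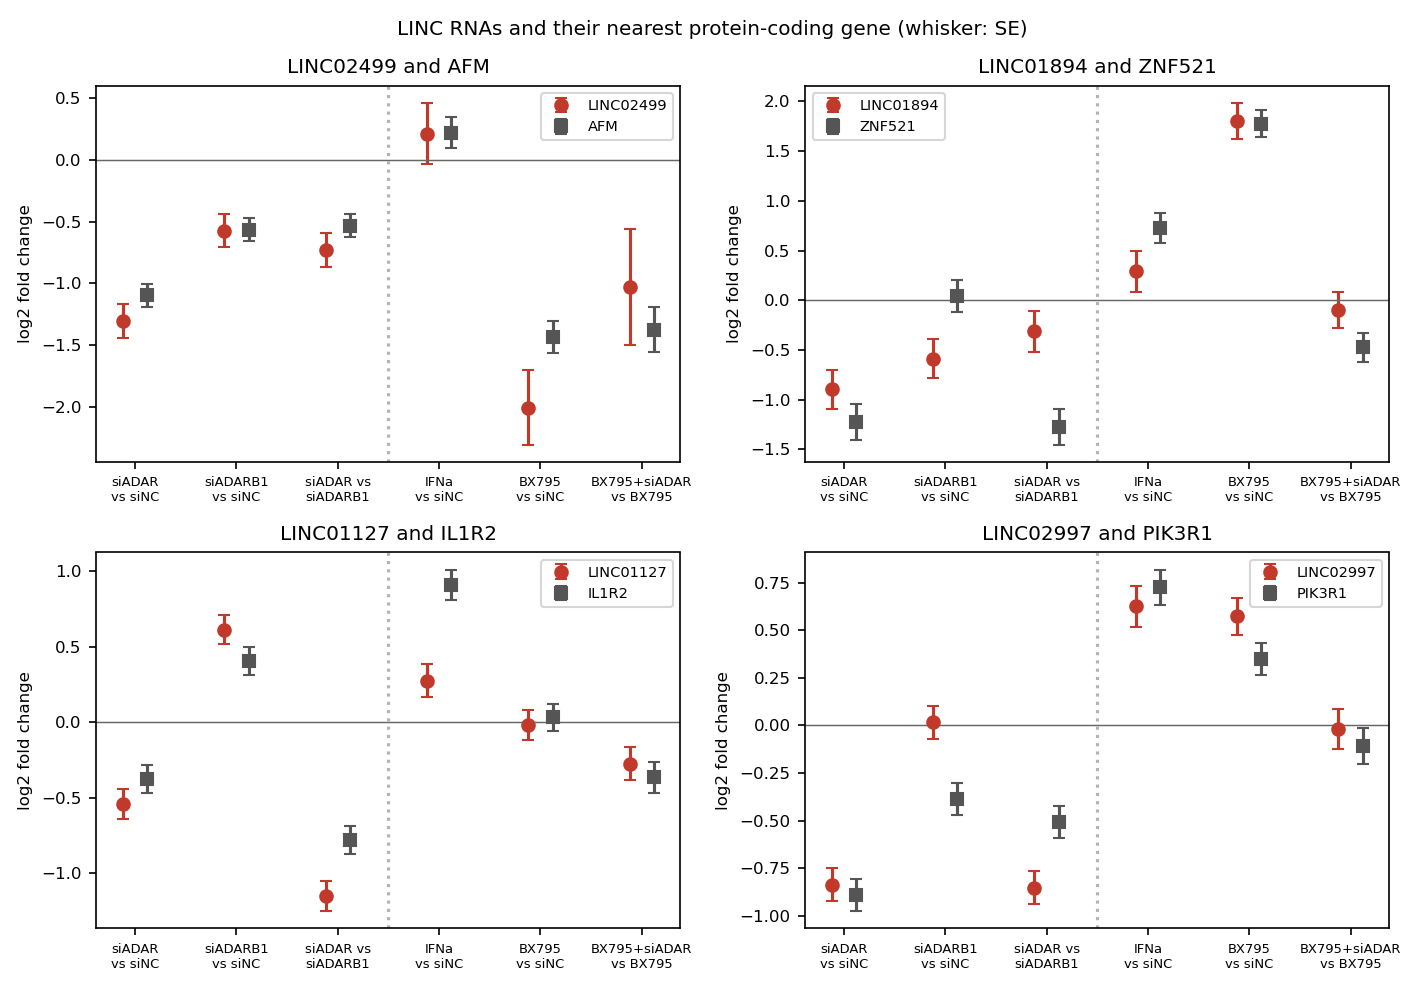
Log2 fold change with its SE (y axis) of 4 LINC RNAs (red circles) and their nearest protein-coding gene (grey squares) in 6 comparisons (x axis), with batch 1 left of the dotted line. LINC02499 and AFM both lie under 0 in all 3 comparisons of batch 1 and after BX795.

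Neighbours were counted for all called members. After siADAR, of the 44 members that fell, 36 had a nearest protein-coding gene that was tested, and 9 of those genes fell while 4 rose, against 10.8% lower over all tested genes. Of the 12 that rose, 10 had a tested neighbour, and 5 of those genes rose, against 11.0% of all tested genes. After BX795, 28 of 51 tested neighbours of the members that rose also rose and 4 fell, against 23.4% higher over all tested genes. Of 33 tested neighbours of the members that fell, 17 fell and 5 rose, against 23.7% lower over all tested genes. For IFNa 11 of 21 tested neighbours of rising members rose, against 18.4% of all tested genes. Of 25 tested neighbours of falling members 7 fell and 3 rose, against 15.9% lower over all tested genes. Among neighbours of falling members, 3 overlapped the member after BX795 and 3 after IFNa, so their reads may not be separated. Of these, 3 fell after BX795 and 2 after IFNa. Neighbours without overlap fell in 14 of 30 cases after BX795 and in 5 of 22 after IFNa. Of 12 tested neighbours of members that fell in BX795 with siADAR cells, none fell and 1 rose, against 4.46% lower over all tested genes, and 2 of 5 tested neighbours of members that rose also rose, against 5.06% of all tested genes. Over the other tested genes with at least 2 CPM, these shares were larger. They were 15.5% higher and 15.3% lower after siADAR, and 33.8% and 32.15% after BX795. After IFNa they were 28.5% and 22.4%, and in BX795 with siADAR cells 7.92% and 6.67%. The neighbours were not matched for level. In batch 2 base composition moves with the direction of the members, and its part in the shared direction of neighbours was not tested.

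Long noncoding RNAs with other names moved in the same comparisons. Of 45 such genes on a list that included NEAT1, MALAT1, H19 and HNF4A-AS1, 38 were tested. After siADAR 6 were higher and 9 lower (39.5%, against 21.8% of all tested genes), and the median log2 fold change was −0.04. HNF4A-AS1, antisense to the hepatocyte factor gene HNF4A, had −1.62 ± 0.14 (SE) and NEAT1, the scaffold RNA of paraspeckles, −0.67 ± 0.12. After siADARB1 3 rose and 3 fell (15.8%, against 4.61% of all tested genes). After IFNa 4 rose and 9 fell (34.2%, against 34.3%), and after BX795 8 rose and 9 fell (44.7%, against 47.1%). In BX795 with siADAR cells, against BX795 cells, 4 rose and 6 fell (26.3%, against 9.52% of all tested genes). HNF4A-AS1 had −2.70 ± 0.70 there, and the interaction was not called for it (adjusted p = 0.64, edgeR). Reads of HNF4A-AS1 and HNF4A may not be separated where they overlap. Over the other tested genes with at least 2 CPM, the called shares were 30.8% after siADAR and 7.11% after siADARB1. They were 50.9% after IFNa, 66.0% after BX795 and 14.6% in BX795 with siADAR cells. The list was not limited to genes at that level.

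Across the 6 comparisons, which share libraries within a batch, 20 members (9.95%) were called in at least 4 and 51 (25.4%) in none. Over all tested genes these shares were 8.93% and 36.6%, and over the other genes with at least 2 CPM 14.2% and 14.1%. LINC00472, LINC01029 and LINC02268 were lower in all 3 comparisons with the ADAR siRNA on top and higher after IFNa and after BX795. With the GC correction both rises held for LINC00472 (0.30 and 0.76), while those of LINC01029 (0.33 and 0.23) and LINC02268 (0.38 and 0.32) were no longer called. LINC00511 and LINC00294 showed the opposite order, higher after siADAR and lower after IFNa and BX795. LINC01348 was lower after siADAR, siADARB1, IFNa and BX795, although its BX795 value of −0.43 became −0.23 with the GC correction and lost the call (adjusted p = 0.29, edgeR). LINC02884 was higher after all 4.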

How the data were processed

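Total RNA of differentiated HepaRG cells was depleted of ribosomal RNA and sequenced as directional paired libraries, per the labels' protocols. The authors deposited 1 table of expected counts per gene, not scaled between libraries; per the submitters' processing notes they used STAR, Salmon and build GRCh38.p14. Tool versions, their roles and the release of the annotation were not given in the sources used here. Of the deposited values 94.8% lay within 0.005 of a whole number, and counts were rounded. Symbols were matched by Ensembl ID for 61463 of 78894 genes.

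Members were selected on CPM (count divided by the library total). Means over all 19 libraries, levels per kilobase and the levels of ADAR, ADARB1 and the cell type markers are such unscaled CPM as well. Levels of members by library or group are CPM scaled by the trimmed mean of M-values (TMM). Scaled and unscaled levels are not directly comparable. edgeR 4.0.16 (R 4.3.3) was run with TMM, filterByExpr and the quasi-likelihood test on 23121 genes, with 7 group means over 19 libraries, 12 residual degrees of freedom and a common biological coefficient of variation of 11.2%. Groups of 2 libraries thus borrow the spread of the others. SE is the log2 fold change divided by the root of F. A call is an adjusted p under 0.05 (Benjamini-Hochberg over all tested genes). The procedure was checked on simulated data.

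Alternatives were DESeq2 1.42.0, its size factors, no filter, the batch or compared groups alone, a replicate block, a GC correction (lowess of each library against its batch mean; 87.0% of tested genes had a GC value), other level thresholds and leaving out each library. The nearest protein-coding gene was taken from RefSeq, leaving out spans over 3000000 bases. Genes named are the 10 most abundant members, up to 8 of the largest called changes each way per comparison, members at the threshold or called in at least 4 comparisons, and their neighbours; other genes named were chosen after their values were seen. Members and lists were chosen with earlier results of these data known.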

Additional observations from a re-analysis of the deposited data

Results flagged for a closer look

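The response to the ADAR siRNA differed between cells with and without BX795 for 3 of the 201 members, by an interaction test in edgeR at an adjusted p under 0.05, a share of 1.49%, against 3.42% of all tested genes. The difference (BX795 with siADAR minus BX795, less siADAR minus siNC of batch 1) was 2.00 on the log2 scale for LINC02518, 0.82 for LINC02997 and 0.72 for LINC00844. LINC02518 rose in both settings, and LINC02997 and LINC00844 fell without BX795 and were not called with it. The LINC00844 call was lost with the replicate block (adjusted p = 0.062, edgeR) and without either BX795 with siADAR library or BX795 replicate 3 (0.051 to 0.11). Batch, BX795 and any lack of siRNA in the BX795 wells cannot be told apart in this difference.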

How the results depend on the processing

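For siADAR, all 16 changes named by size were called in each alternative, and the same held for all 16 after BX795. Over all comparisons, 25 of 87 named changes lost their call in at least 1 alternative and none changed direction. Counts of called members moved most where few were called or where a group had 2 libraries; the causes were not tested.

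For siADARB1, against 6 members called, DESeq2 called 12, the batch alone 23, the compared groups alone 22 and the GC correction 10. For IFNa, against 62, the batch alone gave 34, the compared groups alone 16 and leaving out 1 library between 21 and 88. For BX795, against 112, the GC correction gave 73, with 37 higher and 36 lower. For BX795 with siADAR against BX795, with 19 called, DESeq2 gave 29 (6 higher and 23 lower), the batch alone 5, the compared groups alone 10 and leaving out 1 library between 6 and 22. For the interaction, with 3 called, DESeq2 gave 6, its size factors 5, no expression filter 5, the compared groups alone 5, the GC correction 8 and leaving out 1 library between 2 and 5.

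Deviations of same-numbered libraries of a batch correlated between −0.22 and 0.21, and those of different-numbered libraries between −0.21 and 0.22. In groups of 2 libraries the deviations mirror each other, so these ranges are tied. They do not settle if replicate numbers pair the libraries. With the replicate block, siADAR called 45 members, siADARB1 5, siADAR against siADARB1 40, IFNa 44, BX795 103, BX795 with siADAR against BX795 11 and the interaction 2.

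A level threshold of 1 CPM kept 302 LINC genes, 5 CPM kept 132 and TMM-scaled CPM kept 197. The lower depth of batch 2, groups of 2 libraries and the GC trend of its controls limit what its comparisons can show. Strand use in counting and copies of genes limit the counts of overlapping or duplicated members. Directions of members under 2 CPM in a group rest on few counts.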
